A study of Mus musculus with 24 samples.

Results

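The endothelial, smooth muscle and stellate cell miRNAs of the liver are described here: miR-126a-3p, miR-126a-5p, miR-143-3p, miR-145a-5p, miR-199a-3p, miR-199a-5p and miR-214-3p, all of the mouse (mmu-). These 7 of the 1881 mouse miRNAs on the array were picked by name, for the cell types they are known from, by a rule that uses no measured value. All 7 were among the 631 miRNAs that were detected on at least 5 of the 24 arrays and were therefore tested. Signals were measured on one-colour miRNA arrays in liver RNA of 3 mice (numbered 7, 10 and 9), and each mouse gave 1 array to each of 8 groups. In 4 groups total RNA including the small RNAs was isolated, from liver pieces at 0 h and from pieces kept for 96 h. The study states that the latter were left at room temperature. In each case RNA was isolated with and without a DNase step on the column. In the other 4 groups RNA depleted of small RNAs was isolated from fresh tissue (0 h) with DNase, and was hybridized untreated, after a mock incubation without enzyme (0 U RNase), or after incubation with 0.026 U or 0.67 U of RNase. The study describes the mice as male and the labels give no genotype, strain or age for them, so all groups stand for the livers of these 3 animals only. A stored sample and its fresh counterpart are different pieces of 1 liver. The depleted RNA came from a kit that removes small RNAs incompletely, and its RNase groups model fragmentation in the tube rather than in tissue.

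MiRNAs are short RNAs that guide repressor proteins to target messenger RNAs, chiefly through the seed, bases 2 to 8 of the mature strand. Both strands (arms) of a precursor hairpin can be loaded, and the arms are named 5p and 3p. MiR-126 is made in endothelial cells from an intron of Egfl7, a gene for a secreted endothelial factor, and modulates signalling of vascular endothelial growth factor. MiR-143 and miR-145 are made from 1 primary transcript and are typical of vascular smooth muscle, where they favour the contractile state. MiR-199a and miR-214 are made from a shared antisense transcript in mesenchymal cells, and in the liver they are known from hepatic stellate cells, the cells that deposit matrix in fibrosis. In the RefSeq annotation Mir126a overlapped Egfl7 and Mir126b, Mir143 and Mir145a overlapped the noncoding gene Carmn, Mir199a-2 and Mir214 overlapped Dnm3 and Dnm3os, and Mir199a-1 overlapped Dnm2.

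Mature sequences of 4 of the 7 members were taken from RefSeq (GRCm38.p6). They are shown with the seed in capitals, together with 2 miRNAs that are related to members by sequence and were present on the same array.
mmu-miR-126a-3p: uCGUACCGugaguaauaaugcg
mmu-miR-126b-5p: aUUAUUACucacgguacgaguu
mmu-miR-199a-3p: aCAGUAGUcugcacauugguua
mmu-miR-199a-5p: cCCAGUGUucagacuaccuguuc
mmu-miR-214-3p: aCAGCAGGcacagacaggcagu
mmu-miR-761: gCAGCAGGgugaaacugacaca
The 4 members carry 4 different seeds, so none of them shares a seed with another. MiR-199a-3p and miR-214-3p begin with the same 4 bases and differ at 14 positions over their length. MiR-761 has the seed of miR-214-3p, and it was detected on 0 of the 24 arrays. MiR-126b-5p comes from the hairpin that overlaps Mir126a and is complementary to 19 consecutive bases of miR-126a-3p. It too was detected on 0 of the 24 arrays, whereas miR-126a-3p was detected on all 24. The sequence of miR-199a-3p is shared by Mir199a-1, Mir199a-2 and Mir199b, so its signal cannot be assigned to 1 of these genes.

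The tissue label was borne out by hepatocyte miRNAs: all 5 on the list (miR-122-5p, miR-122-3p, miR-192-5p, miR-194-5p and miR-148a-3p) were detected on every array with small RNAs, and in fresh RNA with DNase their signals summed to 7883 to 13850 intensity units. The summed signal of the 2 miR-126a arms on the same arrays was 289 to 498, and that of the 5 smooth muscle and stromal members was 45.1 to 115. Because whole tissue was extracted, fewer cells of a type and less RNA per cell cannot be told apart in any value given here. The arrays differed in quality by design. The RNA integrity number (RIN), which falls as RNA breaks, was 8.8 to 9.0 in fresh RNA with small RNAs and 2.3 to 2.5 after storage, and the number of detected miRNAs rose from 273 to 342 per array to 582 to 707. There were 2 arrays that stood apart from the others of their group. In the 96 h group with DNase, the array of mouse 10 correlated with those of mice 7 and 9 at r = 0.88 and r = 0.85 across the 631 miRNAs, against 0.98 between mice 7 and 9, so storage results are also given without mouse 10. In the 0.026 U RNase group the array of mouse 9 correlated with those of mice 7 and 10 at r = 0.88 for each, against 0.97 between mice 7 and 10, and 408 miRNAs were detected on it, against 255 and 274. RNase results are therefore also given without mouse 9. For mouse 9 the labels disagree on which of its arrays had 0.026 U and which 0.67 U of RNase. They were grouped by the descriptions, and exchanging them changed no call on a member. In this grouping the RIN at 0.026 U was 7.0, 6.9 and 6.0 in mice 7, 10 and 9, and at 0.67 U it was 2.9, 2.6 and 2.4.

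Signals are given first as the scanner reported them, in background-subtracted intensity units that are not normalized between arrays. The signal of a detected miRNA is its total, which can leave out a probe, and that of an undetected one sums its probes. Arrays can therefore differ in the probes counted, which bears on signals and changes alike. Changes are given on the glog2 scale of variance stabilizing normalization (vsn), the method of the study. On it 1 unit is a 2-fold difference for bright signals and more than that near background. A member was called higher or lower at an adjusted p under 0.05 (limma, Benjamini-Hochberg over the 631 miRNAs) with a change of at least 1 glog2 unit. Signals of different miRNAs come from different probes and are not ranked against each other.

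MiR-126a-3p, the leading endothelial miRNA, was detected on all 24 arrays. In fresh RNA with small RNAs its signal was 273, 471 and 439 in mice 7, 10 and 9 with DNase and 349, 572 and 479 without. After 96 h it was 51.7, 122 and 50.8 with DNase and 72.4, 123 and 87.6 without, so every stored array lay below every fresh one. In depleted RNA the signal was between 14.9 and 43.8 on all 12 arrays. MiR-126a-5p, the other arm of the same hairpin, followed the same order. It gave 16.1, 26.2 and 22.9 at 0 h with DNase and 18.3, 31.4 and 23.9 without, and 5.11, 7.18 and 4.86 at 96 h with DNase and 7.30, 8.43 and 9.27 without. It was detected on all 12 arrays with small RNAs and on 0 of the 12 depleted arrays.

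MiR-143-3p, a smooth muscle miRNA, gave 13.5, 34.0 and 16.1 in mice 7, 10 and 9 at 0 h with DNase, and 16.5, 43.1 and 16.1 without. Mouse 10 was the highest in both groups. At 96 h the signal was 1.71, 12.6 and 0.852 with DNase and 3.09, 12.2 and 3.94 without, and it was detected on 3 of these 6 arrays, 2 of them from mouse 10. MiR-145a-5p, its partner in the same transcript, was dim in fresh RNA, with 2.37, 8.57 and 2.66 with DNase and 2.79, 9.49 and 2.21 without, yet was detected on all 6 fresh arrays. As with miR-143-3p, mouse 10 was the highest of the 3.

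MiR-199a-3p, a stromal and stellate cell miRNA, gave 21.1, 50.7 and 28.9 in mice 7, 10 and 9 at 0 h with DNase and 30.3, 71.4 and 33.3 without. After storage it gave 4.22, 16.8 and 2.99 with DNase and 5.22, 17.4 and 7.17 without, below every fresh array. MiR-199a-5p gave 6.66, 18.0 and 10.6 at 0 h with DNase and 10.7, 23.8 and 11.3 without. After storage it lay between 2.18 and 4.93 on the 6 arrays and was detected on 3 of them. MiR-214-3p was at the edge of detection throughout, with 1.51, 3.86 and 1.99 at 0 h with DNase and 1.89, 7.82 and 2.14 without. It was detected in mice 10 and 9 but not in mouse 7 of each fresh group. Of these 3 stromal miRNAs, too, mouse 10 gave the highest fresh signal in both groups.

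**Figure D1:**
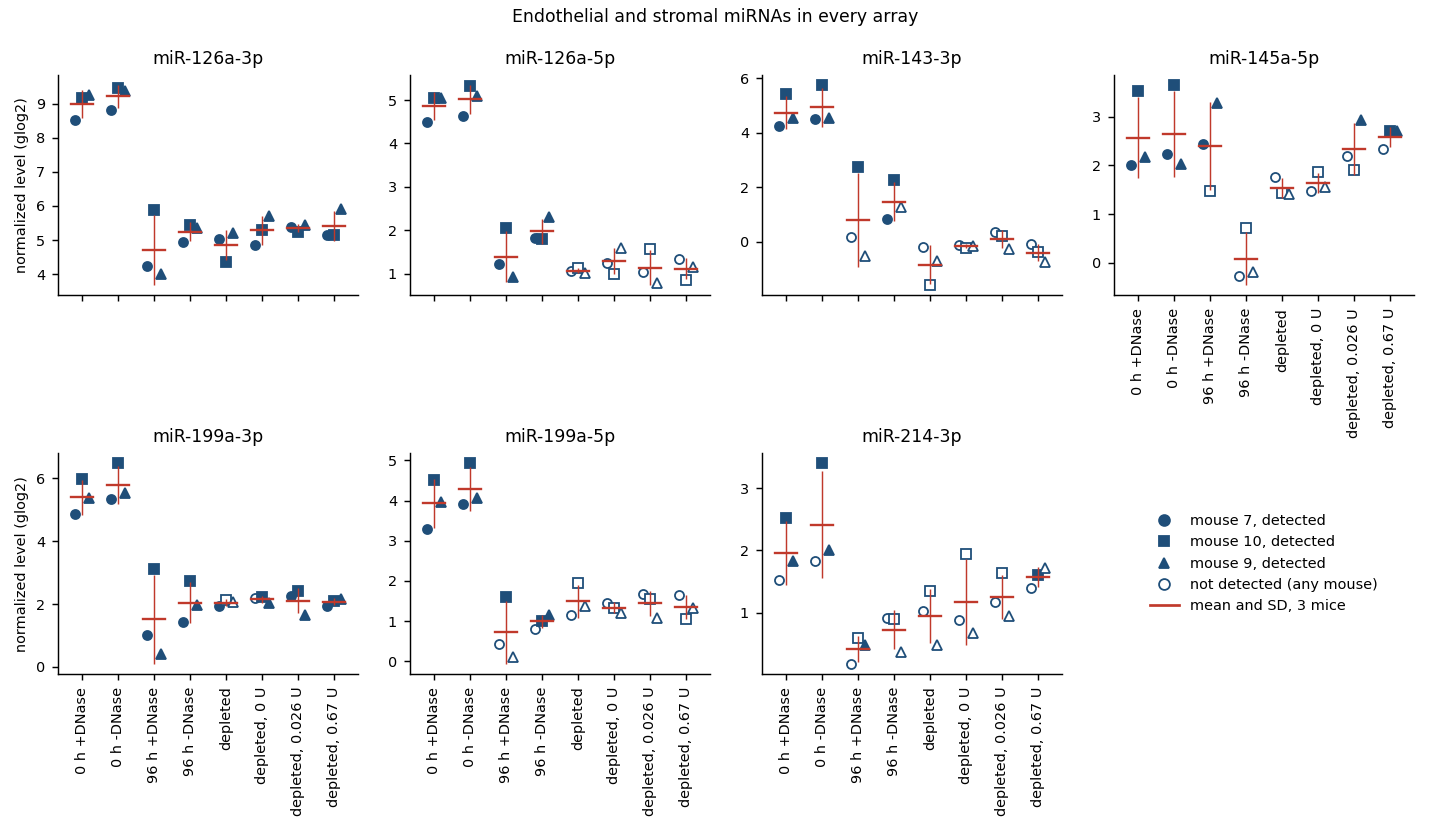
Normalized level (glog2, vertical axis) of each of the 7 miRNAs in the 8 groups, with 1 point per mouse, filled where the miRNA was detected, and the mean and SD of the 3 mice in red. The fresh groups with small RNAs stand above the other groups for miR-126a-3p, miR-126a-5p, miR-143-3p, miR-199a-3p and miR-199a-5p, whereas miR-145a-5p has its lowest mean, 0.08, in the 96 h group without DNase.

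On the normalized scale the groups of each member can be put in order. For miR-126a-3p, miR-126a-5p, miR-143-3p, miR-199a-3p and miR-199a-5p the 2 fresh groups with small RNAs came first and overlapped each other, and the lower of them did not overlap the next group down. Below that step almost all neighbouring groups overlapped. The exception was miR-199a-5p, whose mock-treated depleted group (1.34 ± 0.13 SD, n = 3, glog2) lay wholly above the 96 h group without DNase (0.99 ± 0.17), although it was detected on 0 of those 3 depleted arrays. MiR-214-3p had no step between any neighbouring groups. MiR-145a-5p had its fresh groups, its 96 h group with DNase and both RNase groups in 1 overlapping run from 2.65 down to 2.34, then the mock-treated and untreated depleted groups, and last the 96 h group without DNase.

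The first comparison asked how the members fared when liver decayed for 96 h. In DNase-treated RNA 6 of the 7 were called lower and none higher, where 21.6% of all 631 miRNAs were called lower and 60.4% higher. In RNA without DNase all 7 were called lower, where 23% of all miRNAs were called lower and 60.5% higher. The median change of the members was -3.46 and -3.30 glog2, and that of all 631 miRNAs was 2.47 and 2.16. The hepatocyte miRNAs went with them: 5 of 5 were called lower in both comparisons, with a median change of -3.08 and -2.93. Among the members, miR-143-3p, miR-199a-5p and miR-214-3p passed the detection filter only with the help of their fresh arrays. Other miRNAs passed it through stored arrays, on which more miRNAs were detected. The contrast between the members and all tested miRNAs is therefore partly set by the filter.

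With DNase, miR-126a-3p changed by -4.28 glog2 (SE 0.40, limma adjusted p = 1.01e-08). Its unnormalized signal at 96 h was 18.9%, 26.0% and 11.6% of the fresh signal of the same mouse. MiR-126a-5p changed by -3.46 (SE 0.30, adjusted p = 4.56e-09) and kept 31.8%, 27.4% and 21.2% of its total signal. Its stored total left out a probe that its fresh total counted, so these values overstate the fall. The probes had means of 17.6 and 4.10 units at 0 h and 5.72 and 2.06 at 96 h, and singly changed by -3.17 and -2.25 glog2. MiR-143-3p changed by -3.93 (SE 0.61), miR-199a-3p by -3.89 (SE 0.50) and miR-199a-5p by -3.21 (SE 0.38), and all 3 mice moved down for each of them. Fresh and stored groups did not overlap on the normalized scale for the 6 members called, where 23.3% of all miRNAs lay wholly lower after storage. Without DNase the groups of all 7 members were apart, where the share of all miRNAs was 25.4%.

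Without DNase, miR-126a-3p changed by -3.97 (SE 0.40, limma adjusted p = 2.64e-08), miR-199a-3p by -3.75 (SE 0.50), miR-143-3p by -3.46 (SE 0.61), miR-199a-5p by -3.30 (SE 0.38) and miR-126a-5p by -3.04 (SE 0.30). The stored total of miR-126a-5p again left out a probe, and its probes singly changed by -2.78 and -1.98. For miR-126a-3p the 3 mice lay closer together here, with changes of -3.89, -4.02 and -4.01, against -4.29, -3.28 and -5.27 with DNase. Within the hairpin the 3p arm of miR-126a fell further than the 5p arm in all 3 mice, by a mean difference of -0.82 ± 0.47 (SD, n = 3) with DNase and -0.93 ± 0.38 without, on the glog2 scale, which compresses changes near background. An exact two-sided test on 3 mice cannot give a p below 0.25, so this difference was not tested further.

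Without mouse 10, whose stored array stood apart, the same 6 members were called lower with DNase and all 7 without. With DNase the changes were then -4.78 for miR-126a-3p, -4.57 for miR-143-3p and -4.41 for miR-199a-3p, further down than with all mice, and -1.35 for miR-214-3p, less far down.

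How far the members fell depended on the scaling between arrays, as did the median of all miRNAs. With no normalization between arrays, on a plain log2 scale, the median of all miRNAs moved to 3.46 with DNase and 3.26 without, and 5 members were called lower in each comparison. All miRNAs then split into 487 higher and 95 lower with DNase, against 261 and 242 with vsn fitted to the tested miRNAs only. Scaling to 4 spike-in features, fly miRNAs added to the RNA, gave medians of 3.39 and 3.26 and the same number of members lower, and miR-126a-3p then changed by -2.48 with DNase and -2.26 without. With the 75th percentile of all miRNAs as the scale, with quantile normalization and with vsn on the tested miRNAs, all 7 members were called lower in both comparisons. Under all 9 scalings tried and in both comparisons, every member lay below the median change of all miRNAs, a contrast partly set by the filter. The distance of the members' median from that median was between -4.65 and -5.94 under 8 of the scalings and -0.98 and -0.92 with normexp background correction, run with an offset of 50 units. Under the rank test that the study used, called at an adjusted p under 0.05, 0 members passed in either storage comparison, and 3 arrays against 3 cannot give a p below 0.1.

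**Figure D2:**
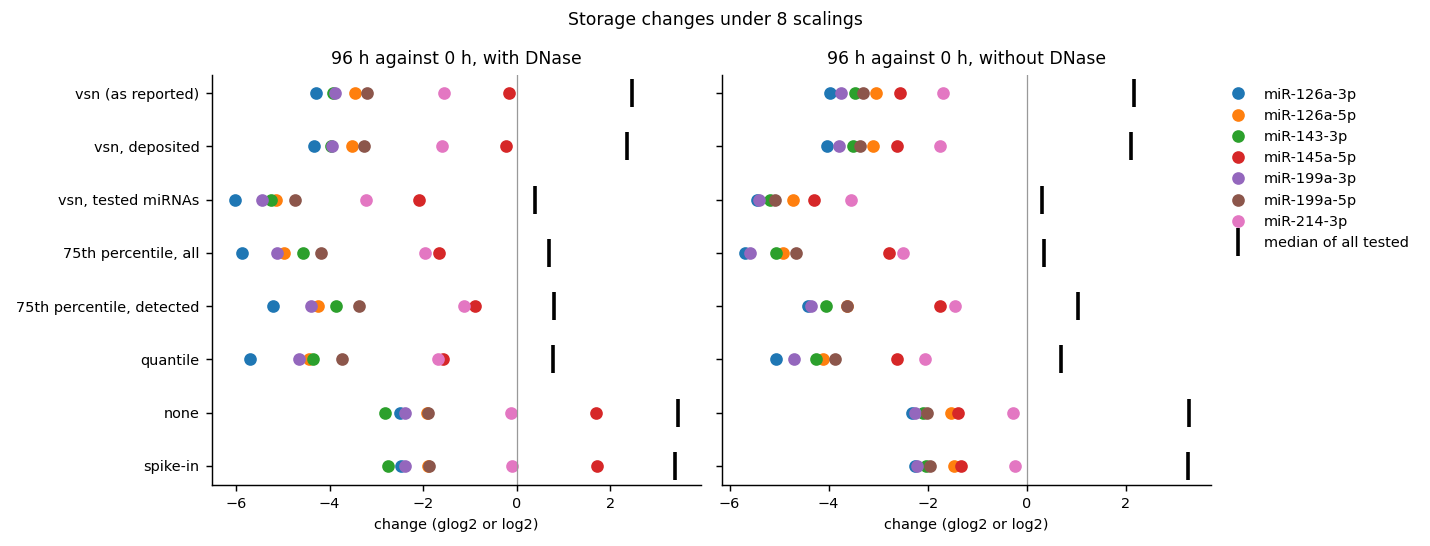
Change between 96 h and 0 h (horizontal axis, glog2 for vsn and log2 otherwise) of the 7 miRNAs (coloured points) and the median of all 631 tested miRNAs (black bar) under 8 scalings, with DNase at left and without at right. Every point lies to the left of the bar of its row, and with spike-in scaling the points move to the right, to between -2.75 and 1.71 with DNase and -2.26 and -0.24 without.

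The call on miR-214-3p rested on the scaling. It was called lower with DNase (-1.55, SE 0.41, limma adjusted p = 0.0015) and without (-1.69, SE 0.41, adjusted p = 6.97e-04). Its unnormalized signals moved in both directions. They were 1.51, 3.86 and 1.99 at 0 h and 1.70, 1.67 and 3.20 at 96 h in mice 7, 10 and 9 with DNase. Without DNase they were 1.89, 7.82 and 2.14 at 0 h and 3.27, 3.86 and 1.38 at 96 h, where it was detected on 0 of 3 arrays. The lowest signal that counted as detected was also higher on stored arrays, 1.34 to 1.62 units, than on fresh ones, 0.751 to 0.912. With spike-in scaling the change was -0.11 with DNase (adjusted p = 0.82) and -0.24 without (adjusted p = 0.61), so the call was lost there.

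MiR-145a-5p was the member that was not called after storage with DNase (-0.17, SE 0.48, limma adjusted p = 0.75, 95% interval -1.17 to 0.83). The mice disagreed. The signal rose from 2.37 to 13.9 in mouse 7 and from 2.66 to 30.3 in mouse 9, and went from 8.57 to 4.40 in mouse 10, where the stored array was below detection. On the normalized scale these are changes of 0.43, 1.11 and -2.04. Without DNase the signal fell in all 3 mice, from 2.79 to 0.683, from 9.49 to 3.20 and from 2.21 to 0.460, and it was detected on 0 of the 3 stored arrays. That change was -2.56 glog2 (SE 0.48, adjusted p = 5.05e-05), which on the vsn scale is at least 4.64-fold lower when each stored array is set to its lowest detected signal or to the miRNA's own, whichever is higher. The unnormalized mean went from 4.83 to 1.45 units, a ratio of 3.33, but the 2 means do not count the same probes on every array. Its 2 probes had mean signals in fresh RNA of 2.17 and 3.42 with DNase and 2.27 and 3.61 without. The mean fresh totals, 4.535 and 4.83, thus left out a probe on some arrays. In stored RNA the probes had mean signals of 8.26 and 7.95 with DNase and 0.560 and 0.888 without, and the totals held both. Taken singly on the normalized scale, both probes were higher after storage with DNase in mouse 9 (0.88 and 0.08) and lower in mouse 7 (-0.07 and -0.42) and in mouse 10. The normalized rise of the total in mouse 7 was thus seen in neither probe. With fresh totals that left out a probe on some arrays, the sizes of the rises are not comparisons of the same probes.

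The direction for miR-145a-5p with DNase also turned with scaling. It was 1.71 (limma adjusted p = 0.023) relative to spike-ins and 1.70 (adjusted p = 0.027) with no normalization, both called higher. It was called lower with the 75th percentile of all miRNAs as the scale (-1.67, adjusted p = 0.0028), with quantile normalization (-1.58, adjusted p = 0.0050) and with vsn on the tested miRNAs (-2.09, adjusted p = 4.57e-05). It was 0.77 (adjusted p = 0.062) without mouse 10. The fall without DNase kept its direction but not its call relative to spike-ins (-1.34, adjusted p = 0.068). MiR-143-3p, from the same transcript, behaved otherwise: its 96 h signal with DNase was 12.7%, 37.0% and 5.28% of the fresh signal in mice 7, 10 and 9, against 586%, 51.3% and 1139% for miR-145a-5p. The percentages of miR-145a-5p compare totals that did not count the same probes on every array.

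**Figure D3:**
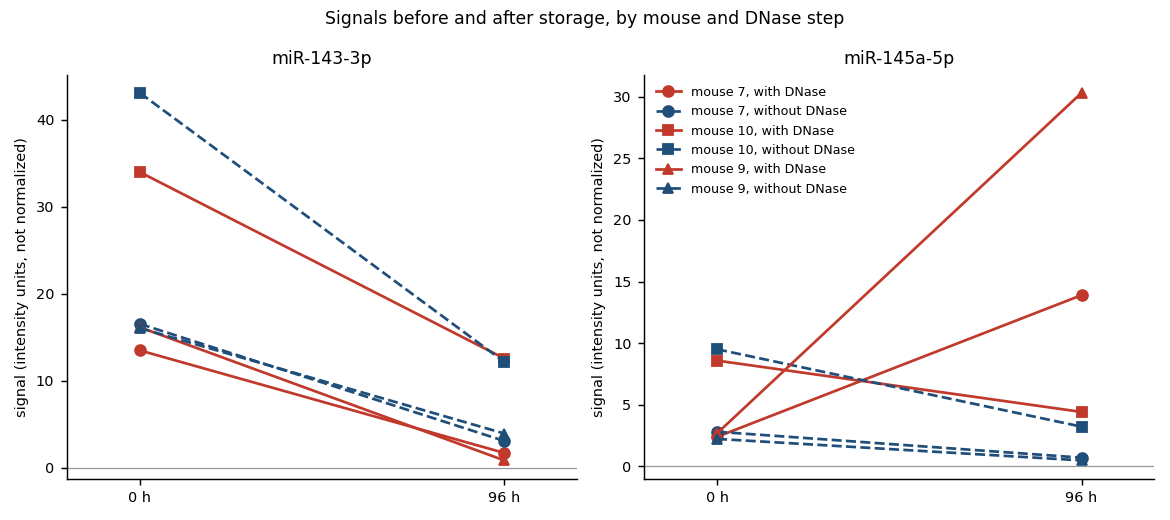
Unnormalized signal (intensity units, vertical axis) of miR-143-3p and miR-145a-5p at 0 h and 96 h, with lines joining the 2 arrays of a mouse, red with DNase and blue without. MiR-143-3p falls on all 6 lines, whereas miR-145a-5p rises to 13.9 and 30.3 on the red lines of mice 7 and 9 and falls on the other 4. Arrays can differ in the probes that the signal counts.

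The DNase step was asked about directly by setting RNA without DNase against RNA with it. In fresh RNA 0 of the 7 members were called by limma, as were 0% of all miRNAs. At an unadjusted p under 0.05 there were 0 members and 30 of the 631 miRNAs. The rank test could call no member, since 3 arrays against 3 cannot give a p below 0.1. The members' changes were between 0.08 and 0.45 glog2, and the widest 95% interval, that of miR-143-3p, ran from -1.08 to 1.47. At 96 h 1 member was called lower and none higher, where 4.6% of all miRNAs were called lower and 6.18% higher. That member was miR-145a-5p, at -2.32 (SE 0.48, limma adjusted p = 0.0022), lower in all 3 mice (-2.70, -0.78 and -3.47 in mice 7, 10 and 9) and at least 3.91-fold lower on the vsn scale by the same bound.

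The call on miR-145a-5p rested on mice 7 and 9. It was -2.12 (adjusted p = 0.21) without mouse 7, -1.74 (adjusted p = 0.21) without mouse 9, and -3.09 (adjusted p = 8.79e-04) without mouse 10. It was also lost with quantile normalization (-1.13), with the 75th percentile of all miRNAs (-1.03) or of the 122 miRNAs that every array detected (-0.98) as the scale, and with normexp. The other 6 members were on average between 0.27 and 0.67 higher without DNase, each in 2 of 3 mice, and were not called. Without mouse 10 miR-143-3p was called higher without DNase, at 1.25 (limma adjusted p = 0.038). MiR-126a-5p (0.993, adjusted p = 0.039) and miR-199a-3p (0.994, adjusted p = 0.045) then passed the p threshold but not that of the change.

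Whether storage acted differently with and without DNase was tested as the difference between both storage effects. None of the 7 members was called, where 1.11% of all miRNAs were called in either direction. For miR-145a-5p the difference was -2.39 (SE 0.68, unadjusted p = 0.0021, limma adjusted p = 0.076), negative in 3 of 3 mice. It was called with vsn fitted to the tested miRNAs and without mouse 10 (-3.14, adjusted p = 0.0088), and lay between -0.86 and -1.12 with both 75th percentile scales and quantile normalization. The other 6 members differed by between -0.14 and 0.47, and 1 of the 7 had an unadjusted p under 0.05, against 87 of the 631 miRNAs.

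The third question was what remained of the members when small RNAs were depleted. Set against fresh RNA with small RNAs and DNase, 5 of the 7 were called lower and none higher, where 24.4% of all miRNAs were called lower and 5.39% higher. The members' median change was -3.35 glog2, against -0.17 for all miRNAs. As in storage, the detection filter bears on this contrast. All 5 hepatocyte miRNAs were called lower as well, with a median of -4.73, although miR-122-5p turned to 2.36 with quantile normalization and to 0.39 with the 75th percentile scale described next. With the 75th percentile of the miRNAs that every array detected as the scale, 4 members were called lower and all miRNAs split into 252 higher and 82 lower. All 7 members were called lower with quantile normalization and with all miRNAs behind the 75th percentile.

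MiR-126a-3p remained detectable in every depleted sample, at 22.1, 14.9 and 25.1 units in mice 7, 10 and 9, or 8.10%, 3.15% and 5.72% of its signal in the undepleted RNA. Its change was -4.12 (SE 0.40, limma adjusted p = 5.06e-08). MiR-199a-3p gave 1.998, 2.35 and 2.14 units, was detected in mouse 7 only, and changed by -3.35 (SE 0.50, adjusted p = 1.40e-05). The other 5 members were detected on 0 of the 3 depleted arrays. By the same bound on the vsn scale, miR-126a-5p was at least 11.3-fold lower (adjusted p = 2.60e-09), miR-143-3p at least 10.3-fold lower (adjusted p = 2.66e-07) and miR-199a-5p at least 5.29-fold lower (adjusted p = 2.36e-05). MiR-143-3p was at or below the local background on these arrays, at -0.0603, -0.846 and -0.426 units.

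The 2 members that were not called were miR-145a-5p and miR-214-3p. MiR-145a-5p changed by -1.03 (SE 0.48, limma adjusted p = 0.12) and miR-214-3p by -1.01 (SE 0.41, adjusted p = 0.065). Both were lower in 3 of 3 mice and their groups did not overlap, where 30.3% of all miRNAs lay wholly lower in depleted RNA, with signals of 1.71, 1.04 and 1.04 for depleted miR-145a-5p and 0.756, 0.905 and 0.143 for depleted miR-214-3p in mice 7, 10 and 9. Both were called lower with the 75th percentile of all miRNAs as the scale (-1.46 and -1.52) and with quantile normalization (-1.45 and -1.97), and turned to 0.63 and 0.12, not called, with the 75th percentile of the miRNAs that every array detected. With the mouse as a replicate block the change of miR-214-3p was called (adjusted p = 0.015). The mock incubation of depleted RNA changed none of the 7 members past the threshold by limma, and 0 had an unadjusted p under 0.05, where 1.74% of all miRNAs were called in either direction. Here, too, the rank test could call no member with so few arrays. Their changes ran from -0.16 to 0.67, the latter that of miR-143-3p, which was not detected on any of the 6 arrays.

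RNase treatment of depleted RNA asked whether fragments of longer RNAs give miRNA signals. Averaged over both doses and set against the mock incubation, none of the 7 members was called by limma and 0 had an unadjusted p under 0.05, where 44.7% of all miRNAs were called higher and 0% lower. The median change was 0.06 for the members and 0.69 for all miRNAs. At 0.026 U 36.6% of all miRNAs were called higher and 0.158% lower, and at 0.67 U 44.8% were called higher and 0.475% lower, with 0 members called at either dose. Limma without mouse 9 also called 0 members at either dose and over both. The rank test called 0 members over both doses, where 6 arrays against 3 cannot give a p below 0.0238. At a single dose it could call none.

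MiR-126a-3p gave 18.8, 21.5 and 26.8 units in mice 7, 10 and 9 after the mock incubation, 27.2, 22.8 and 43.8 after 0.026 U and 26.8, 37.5 and 37.8 after 0.67 U. The unnormalized signal was higher after RNase in 6 of 6 arrays, and on the normalized scale the change was 0.09 (SE 0.35, 95% interval -0.63 to 0.82). MiR-199a-3p stayed between 1.49 and 3.80 units on all 9 arrays and changed by -0.06 (SE 0.43). MiR-126a-5p, miR-143-3p and miR-199a-5p were detected on 0 of the 6 RNase-treated arrays.

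MiR-145a-5p changed by 0.83 (SE 0.41, limma adjusted p = 0.11) and was not called. Its signal was 0.912, 1.44 and 0.896 units after the mock incubation, 2.28, 1.64 and 6.88 after 0.026 U, and 3.00, 6.21 and 3.48 after 0.67 U in mice 7, 10 and 9. It was detected on 0 of 3, 1 of 3 and 2 of 3 arrays in these groups, and the mock group did not overlap either RNase group, where 34.5% of all miRNAs lay wholly higher after 0.026 U and 47.5% after 0.67 U. It was called higher with spike-in scaling (1.67), with quantile normalization (1.47) and without mouse 10 (1.02, adjusted p = 0.014). It was 0.62 without mouse 9 (adjusted p = 0.44), -0.27 with vsn on the tested miRNAs and -0.04 with the 75th percentile of the miRNAs that every array detected, none of them called. The result for the other members also moved with scaling, since vsn fitted to the 631 tested miRNAs, which brings the median of all from 0.69 to -0.49, called 4 of the 7 lower over both doses and 26.5% of all miRNAs higher and 33.9% lower.

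**Figure D4:**
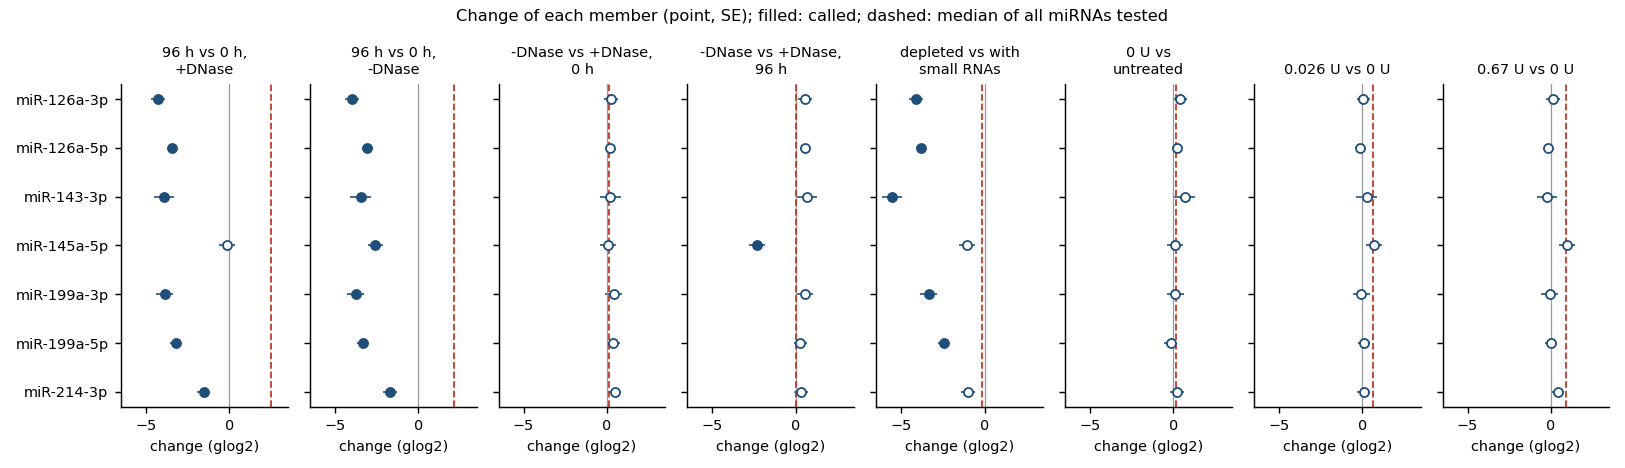
Change in glog2 (horizontal axis) with its SE for each of the 7 miRNAs in 8 comparisons, filled where called, with the median change of all 631 tested miRNAs as a dashed red line. The filled points are all negative, in both storage comparisons, in the depletion comparison and for miR-145a-5p without against with DNase at 96 h.

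The profiles of the members across all 24 arrays were set against those of the other tested miRNAs, as a description of arrays that share mice and treatments. The tested miRNA outside the set with the highest Pearson correlation was miR-24-3p for miR-126a-3p (r = 0.99), miR-122-3p, a strand of the hepatocyte miRNA, for miR-126a-5p (r = 0.99), miR-195a-5p for miR-143-3p (r = 0.98), miR-497a-5p for miR-199a-3p (r = 0.99) and miR-199b-5p, the paralogue, for miR-199a-5p (r = 0.97). MiR-214-3p was closest to miR-34a-5p (r = 0.84). MiR-145a-5p was closest to miR-423-5p (r = 0.74), and each of the other 6 members had its lowest correlation within the set with miR-145a-5p, between 0.22 for miR-143-3p and 0.53 for miR-214-3p.

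Of the 8 partner arms and paralogues of the members, 7 were on the array. MiR-126b-3p, miR-126b-5p, miR-143-5p, miR-145a-3p and miR-145b were detected on 0 arrays, miR-214-5p was detected on 3, and only miR-199b-5p, on 8, was tested. The 3 arrays of miR-214-5p were those at 96 h without DNase, with 13.04, 5.847 and 11.75 units in mice 7, 10 and 9. Its mean signal was -0.296 at 0 h with DNase, -0.398 at 0 h without, and 0.224 at 96 h with DNase. This partner arm thus rose with storage without DNase, unlike the members, and was not tested. MiR-199b-5p was called lower after storage with DNase (-2.60, SE 0.36, limma adjusted p = 1.33e-06) and without (-2.89, adjusted p = 3.90e-07). It was also called lower in depleted RNA (-1.58, limma adjusted p = 0.0015), where it was detected on 0 of 3 arrays. The depletion change was 0.02 with the 75th percentile of the miRNAs that every array detected as the scale. After storage miR-199b-5p was detected only in mouse 10. It passed the detection filter only with the help of its fresh arrays, so its fall adds no support. A second list held 8 other miRNAs known from vascular and stromal cells, of which 5 were tested: miR-10a-5p, miR-10b-5p, miR-130a-3p, miR-221-3p and miR-322-5p. All 5 were called lower in both storage comparisons and in depletion, with medians of -2.78, -2.86 and -2.54 glog2, and none was called for DNase, mock incubation or RNase. MiR-10b-5p and miR-322-5p were each detected on 6 arrays, all of them fresh with small RNAs. They passed the detection filter only through the arrays where they are high, so their fall adds no support. With the same percentile scale miR-10b-5p turned from -1.04 to 0.38 in depletion.

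The leukocyte, erythroid and biliary lists moved with the members in part. After storage with DNase 4 of 5 tested leukocyte miRNAs were called lower, with miR-155-5p higher, 2 of 3 erythroid miRNAs were lower, with miR-486a-5p higher, and both biliary miRNAs were lower. The same numbers held without DNase. MiR-142a-5p and both tested biliary miRNAs were detected only on fresh arrays with small RNAs, and miR-155-5p on none of these arrays. They passed the detection filter only through arrays where they are high, so their directions add no support. The direction of miR-486a-5p turned with vsn on the tested miRNAs (-0.82 with DNase and -0.26 without), with quantile normalization and with the 75th percentile of all miRNAs, and that of miR-155-5p turned with vsn on the tested miRNAs without DNase (-0.58). The summed signal of the 6 leukocyte miRNAs was 58.7 to 148 on the 0 h arrays with DNase and 62.0 to 84.2 at 96 h, that of the 4 erythroid miRNAs 226 to 431 and 180 to 235, and that of the 5 biliary miRNAs 7.36 to 11.1 and 0.136 to 3.71. Of the defining markers, miR-144-5p, miR-200c-3p and miR-141-3p were not detected on any array of either group, and all 5 biliary miRNAs were below detection at 96 h with DNase. Their part in the members' results was not tested.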

How the data were processed

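Per the file headers, signals were extracted by the authors with Agilent Feature Extraction 10.10.1.1. The deposited scanner files hold background-subtracted intensity values for each probe and miRNA, with detection flags, and the deposited table of all arrays holds log2-scale values that the authors made by vsn. A miRNA's signal was its total gene signal where detected and otherwise the sum of its probes' signals. The total gene signal can leave out a probe, so arrays can differ in the probes counted. Each member had 2 probes, whose mean changes in storage, with DNase left out at 96 h, and in depletion had the same sign. Over both RNase doses this held for 5 of the 7 members. The probes of miR-199a-3p (-0.037 and 0.082) and miR-199a-5p (0.082 and -0.212) went apart there. The vsn model was fitted in Python 3.11.15 to all 1881 miRNAs (SD of the difference from the deposited values 0.0956, lowest correlation on any array 0.999829). The error in array scale on simulated data was at most 0.023 log2.

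Groups were compared by limma 3.58.1 in R 4.3.3 with 8 group means, a variance trend and no block, in 10 comparisons, each adjusted over 631 miRNAs. A rank test with a 2-fold minimum, named in the study's methods, was an alternative here. In simulated storage data with 631 miRNAs the fit recovered 75% of changes of 2 log2 units and 94% of changes of 3. Array files give no mean signal, so normexp used the median signal with an offset of 50. The 8 arrays of an animal were on 1 slide, scanned together, so animal, slide and scan cannot be told apart. Arrays were taken to come from the same animal where their labels carry the same number. After removal of group means such arrays correlated at 0.0914 on average (lowest -0.402), against -0.045 between mice. These correlations alone do not show a shared animal. No 2 arrays were identical. The number of arrays limits precision.

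The rule for the members uses names alone, but members, lists and tests were chosen with earlier results of these data known. The miRNAs named were the 7 members, the closest other miRNA of each, and the fixed lists. Alternatives changed the normalization, the background correction, the filter, the arrays fitted, the block, the test, the mice and the RNase labels of mouse 9.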

Additional observations from a re-analysis of the deposited data

How the results depend on the processing

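Exchanging the RNase doses of mouse 9, fitting only the groups compared, dropping the detection filter and using the deposited vsn values changed no call on a member, and the replicate block, which pairs the arrays of a mouse, changed only that on miR-214-3p in depletion (-1.01, adjusted p = 0.015). Storage was called lower for 6 members with DNase and 7 without. These counts became 2 and 2 with normexp and 0 and 0 with the rank test, which can call no member in any comparison of 3 arrays against 3. With DNase, 1 member was called higher with spike-in scaling and 1 with no normalization between arrays: miR-145a-5p, whose direction turned (1.71 and 1.70). The interaction of storage and DNase gave 1 member lower with vsn on the tested miRNAs, and 0 to 1 when mice were left out in turn. For the latter test no rank version exists. DNase at 96 h lost its 1 member called lower with both 75th percentile scalings, quantile normalization, normexp and the rank test (0 each). Leaving out mice in turn gave 0 to 1 lower and 0 to 1 higher. Depletion counted 5 members lower, but 1 with normexp and 0 with the rank test.

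RNase calls depended on the scaling. Over both doses, at 0.026 U and at 0.67 U, the members called lower numbered 3, 3 and 4 with the 75th percentile of the miRNAs that every array detected, 1, 1 and 2 with quantile normalization and 4, 1 and 5 with vsn on the tested miRNAs. Those called higher numbered 1, 2 and 1 with quantile normalization, and 1 over both doses and 1 at 0.67 U with spike-in scaling. Leaving out mice in turn gave 0 to 1 higher in each. MiR-126a-3p turned to -1.23, -1.12 and -1.33 with that percentile and to -1.60, -1.42 and -1.79 with quantile normalization. MiR-199a-5p turned to -1.19 at 0.67 U with that percentile, and with vsn on the tested miRNAs to -1.13 over both doses and -1.35 at 0.67 U, where miR-143-3p turned to -1.45 over both doses and miR-214-3p to -1.01 at 0.67 U. The cause was not tested. Dim signals limit miR-214-3p, detected on 6 of 24 arrays, miR-143-3p and miR-199a-5p, on 9 each, and miR-145a-5p, on 11.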
